A study of Mus musculus with 141 samples.

Results

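The *Hox* genes were taken as the protein-coding genes of the count and TPM tables whose symbol is Hox, a cluster letter from a to d and a number. The 38 genes described here, of the 36558 genes listed, comprise 10 genes of the Hoxa cluster, 10 of Hoxb, 9 of Hoxc and 9 of Hoxd. No expression value entered the rule. The data are RNA-seq libraries of inguinal white adipose tissue (iWAT), which the labels call subcutaneous adipose, from inbred strains of the Hybrid Mouse Diversity Panel (HMDP). All mice ate chow until 8 weeks of age and then a diet rich in fat and sucrose (the HF/HS diet) for 8 weeks, and were fasted before tissue collection, so no group was on chow at the end. Females contributed 67 libraries and males 74, taken from 82 strains with 1 library per strain and sex. In 59 strains both sexes were sequenced, and the other 8 had a female library only and 15 a male library only.

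The 59 matched strains fall into families by name. The BXD strains are recombinant inbred lines from C57BL/6J and DBA/2J, and comprise 5 strains with the suffix TyJ (the older lines, among them BXD24/TyJ-Cep290<rd16>/J, which carries a retinal degeneration allele) and 21 with the suffix RwwJ. The AXB/BXA strains (9) derive from A/J and C57BL/6J, the CXB strains (3) from BALB/c and C57BL/6, and the BXH strain (1) from C57BL/6J and C3H/HeJ. The other 20 are inbred strains that are not lines of these crosses. Among them are the founders C57BL/6J, DBA/2J, A/J and C3H/HeJ, and BALB/cJ. A strain is represented by 1 library per sex, so that the mouse and the strain can be separated only through the other sex, and each library is bulk tissue, in which fewer cells of a type and less RNA per cell cannot be told apart.

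*Hox* genes encode homeodomain transcription factors that give cells of the embryo their position along the head-to-tail axis. Within a cluster the genes lie in the order in which they are used along that axis, from position 1 at the head end to position 13 at the tail end, and genes with the same number in different clusters are paralogs. Adipose progenitors keep a *Hox* pattern into adult life, which differs between fat depots of the upper and lower body. On the GRCm38 (mm10) build, the Hoxa genes described lie on the reverse strand of chromosome 6 (from 52162417 to 52260880), Hoxb on the forward strand of chromosome 11 (96194316 to 96368256), Hoxc on the forward strand of chromosome 15 (102921103 to 103036852) and Hoxd on the forward strand of chromosome 2 (74668310 to 74765142).

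Libraries held from 6269001 to 78562464 estimated counts, with a median of 30233062. A floor of 3 counts corresponds to 0.0992 CPM at the median depth and to 0.478 CPM in the shallowest library, and covers counting error only. Adipocyte markers summed to a median of 31255 TPM in females and 41395 TPM in males, and none of the defining markers of the cell types examined was at 0 in every library. Y-linked genes went against the sex label in 3 libraries. These are the BXD34/TyJ female (794 CPM, against 5.66 to 35.7 CPM in the other females), the BXD69/RwwJ female (372 CPM) and the NZW/LacJ male (9.38 CPM, against 164 to 581 CPM in the other males). Only NZW/LacJ is a matched strain. The library labelled BXD34/TyJ female was also the shallowest and had the lowest adipocyte sum, 5445 TPM.

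Of the 38 genes, 25 reached a median of at least 1 TPM over all libraries and are called expressed here. A further 3 (*Hoxd10*, *Hoxd3* and *Hoxb1*) had medians between 0.1 and 1 TPM, and 10 were near or at the floor. The Hoxa cluster contributed 8 of its 10 genes, Hoxb 8 of 10, Hoxc 6 of 9 and Hoxd only 3 of 9. Along the axis, every gene of position 2 and of positions 4 to 9 was expressed, against 2 of 3 genes of position 3, 2 of 3 of position 10 and none of the 9 genes of positions 11 to 13. The 25 genes were found without the shallowest library (chosen after seeing the data) and without the 3 libraries that went against their label, while a threshold of 0.5 TPM gave 28 genes and one of 2 TPM gave 22.

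**Figure D1:**
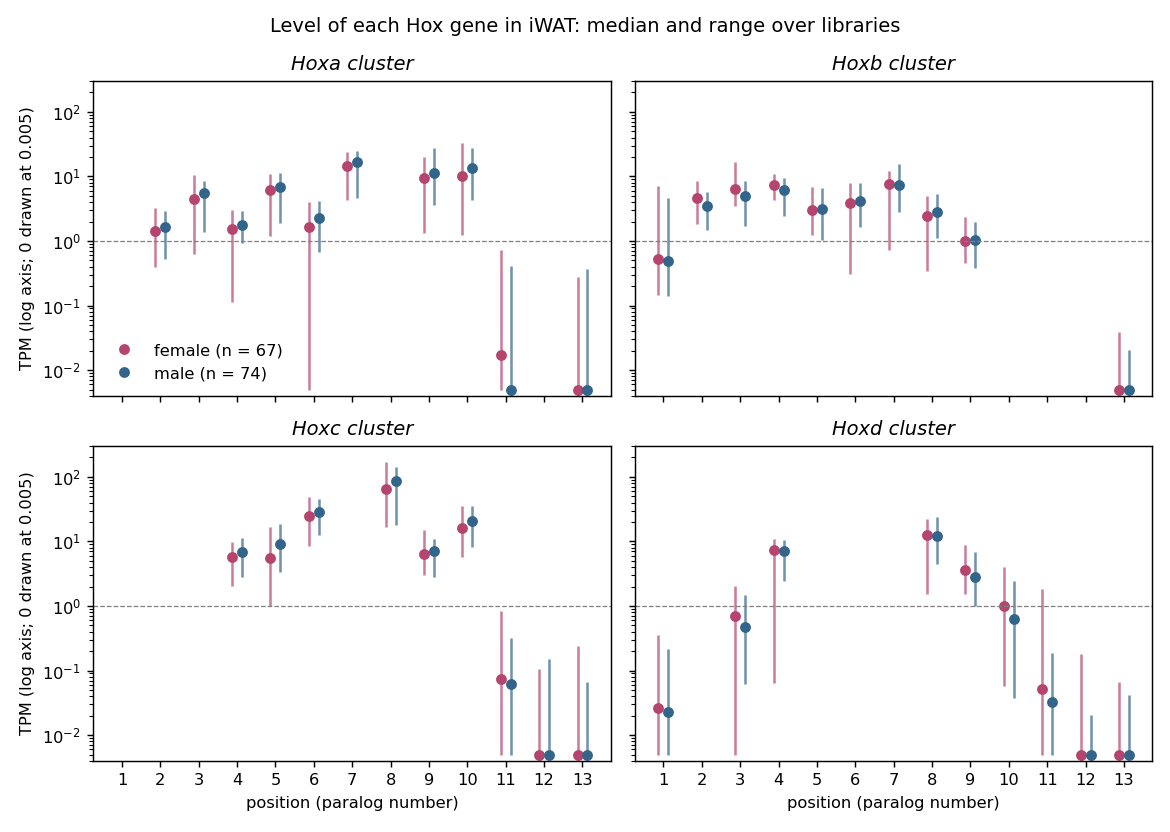
Expression of the 38 *Hox* genes by cluster. The x axis is the position in the cluster, the y axis is TPM on a log scale (0 drawn at 0.005), points are medians over female (n = 67) and male (n = 74) libraries, lines run from the lowest to the highest library, and the dashed line marks 1 TPM. Levels fall off steeply after position 10 in each cluster, and *Hoxc8* stands highest in both sexes.

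*Hoxc8*, which patterns the thoracic region of the embryo and acts as a repressor of brown adipocyte differentiation, was the highest of the 38. It ranged over 16.7, 65.3 and 172 TPM (lowest, median and highest) in females and over 18.3, 87.6 and 144 TPM in males, and its median over all libraries, 76.4 TPM, lay at the 95.8th percentile of all genes. The next in order of the median were *Hoxc6* (25.6 TPM), *Hoxc10* (18.9 TPM), *Hoxa7* (15.7 TPM), *Hoxd8* (12.3 TPM), *Hoxa10* (12.2 TPM) and *Hoxa9* (10.3 TPM). Of these, *Hoxc10* is known as a suppressor of browning in subcutaneous fat, and *Hoxa9* and *Hoxa10* are genes of the lumbar and sacral end of the body that also act in blood stem cells and in the uterus. *Hoxc8* was the highest gene of its cluster in every library and *Hoxd8* in all but 1. The lead changed between libraries in the other clusters, with *Hoxa7* highest in 99, *Hoxa10* in 33 and *Hoxa9* in 9 libraries, and with *Hoxb7* highest in 85, *Hoxb4* in 37 and *Hoxb3* in 19. Neighbours in the order overlapped in their ranges over libraries.

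A middle group had medians from 5.22 to 7.65 TPM. It held *Hoxc5* (7.65 TPM), *Hoxb7* (7.50), *Hoxd4* (7.28), *Hoxc9* (6.84), *Hoxb4* (6.82), *Hoxa5* (6.42), *Hoxc4* (6.36), *Hoxb3* (5.46) and *Hoxa3* (5.22). The lowest expressed genes ran from *Hoxb6* (4.05 TPM) through *Hoxb2* (3.92), *Hoxd9* (3.20), *Hoxb5* (3.13), *Hoxb8* (2.72), *Hoxa6* (2.01), *Hoxa4* (1.69) and *Hoxa2* (1.58) to *Hoxb9* (1.01). *Hoxd10* (0.733 TPM), *Hoxd3* (0.576 TPM) and *Hoxb1* (0.515 TPM) followed. *Hoxb1*, a hindbrain gene, exceeded the floor of 3 counts in every library, and was far higher than its median in the BXD27/TyJ female (7.04 TPM), the BXA24/PgnJ male (4.602 TPM) and the PL/J male (4.24 TPM). The PL/J female had 0.310 TPM.

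The remaining genes, those of positions 11 to 13 and *Hoxd1* of the head end, were near the floor. *Hoxc11* (median 0.0671 TPM) exceeded 3 counts in 66 libraries, *Hoxd11* (0.0386 TPM) in 54, *Hoxa11* in 26, *Hoxd1* (0.0256 TPM) in 20 and *Hoxa13* in 11. *Hoxc13* and *Hoxd12* did so in 1 library each, and *Hoxb13*, *Hoxc12* and *Hoxd13* in none, so that these were not detectable at this depth. The highest sum over positions 11 to 13, 3.71 TPM or 3.25% of its *Hox* TPM, was found in the library labelled BXD34/TyJ female, with *Hoxd11* at 1.82 TPM and *Hoxc11* at 0.832 TPM.

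Summed over the 38 genes, females ranged over 99.7, 242 and 462 TPM and males over 107.6, 277 and 393 TPM. The Hoxc cluster took a median of 54.7% of this sum, Hoxa 21.9%, Hoxb 13.95% and Hoxd 9.16%. By position, positions 9 and 10 took 21.05%, positions 1 to 3 took 6.69% and positions 11 to 13 took 0.0678%, and the rest belonged to positions 4 to 8. *Hoxc8* alone took 29.5%, from 13.01% in the SWR/J female to 42.7% in the CXB11/HiAJ female. Hoxc shares were highest in both libraries of CXB11/HiAJ (71.7% in the female and 73.4% in the male) and lowest in the SWR/J female (33.1%).

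The transcriptome index bears on some of these values. kallisto splits reads between transcripts with the same sequence, and 61.1% of the 31-base words of *Hoxd3* and 49.1% of those of *Hoxd4* occur in other genes, mostly in the readthrough model *Gm28230*. Shared words made up 13.7% of *Hoxa2* and 8.24% of *Hoxa3* (mostly with *Gm28308*), 10.5% of *Hoxd11* and 4.20% of *Hoxd10* (with *Gm28309*), and 7.34% of *Hoxc10* and 4.55% of *Hoxc5*, which share words with each other. Antisense models of GENCODE M21 overlap *Hoxb3* (52.6% of its words), *Hoxa11* (33.9%), *Hoxb2* (26.5%), *Hoxa3* (23.6%), *Hoxa7* (19.6%) and *Hoxa4* (14.4%). Of 12 listed noncoding RNAs of the *Hox* clusters, 0 were found by name among the genes quantified. Antisense models may thus not have been in the index of the authors. The libraries are stranded, but levels of the *Hox* genes with shared or overlapping words are the less certain ones.

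The comparison of the sexes asked whether *Hox* expression in iWAT differs between females and males of the same strain. In the 59 matched strains, genes of the Hoxa and Hoxc clusters were lower in females, and selected genes of Hoxb and Hoxd were higher. Of the 28 genes that passed the filter on low counts, 6 were higher in females (Benjamini-Hochberg adjusted p under 0.05 over all genes, from the quasi-likelihood test of edgeR), where 28.4% of all 16765 genes tested were, and 15 were lower, where 29.8% of all genes were. The median log2FC (female over male) was -0.20 over the 28 and 0.01 over all genes. By cluster, 7 of 8 tested Hoxa genes and 6 of 6 Hoxc genes were lower and none higher, Hoxb had 3 higher and 2 lower of 9, and Hoxd had 3 higher and none lower of 5.

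**Figure D2:**
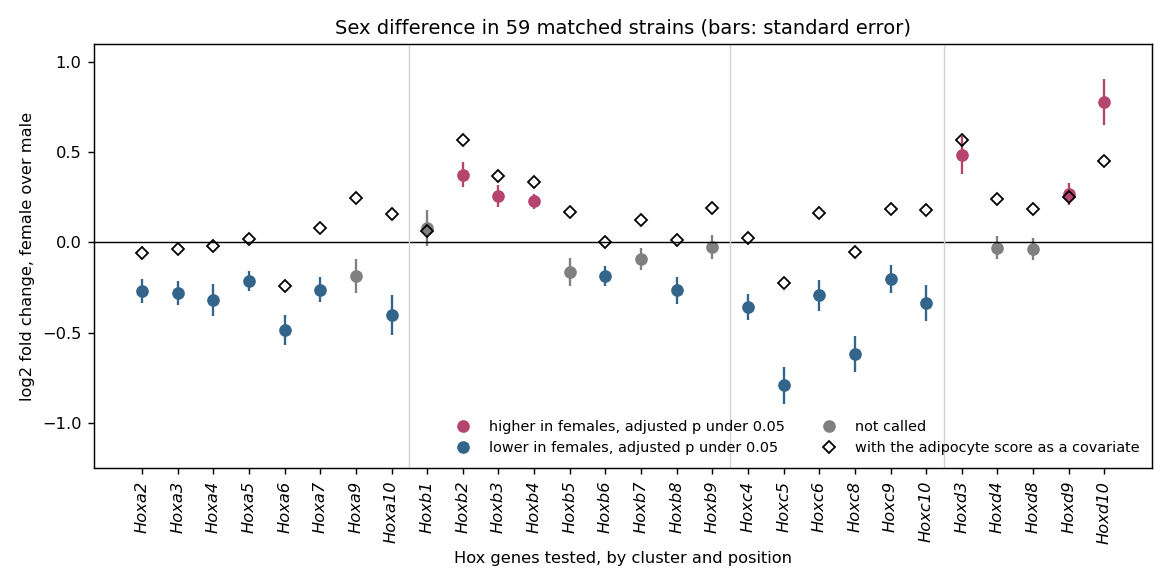
Difference between the sexes for the 28 tested *Hox* genes in the 59 matched strains. The x axis gives the genes by cluster and position, the y axis is log2FC (female over male), points are estimates with their standard errors and are coloured by the call, and diamonds give the estimate with the adipocyte score as a covariate. The called Hoxa and Hoxc genes lie below 0 and the called Hoxd genes above it, and most diamonds lie above their points.

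*Hoxc5*, a gene of the cervical and upper thoracic region, had the largest difference of the 28. Females ranged over 0.996, 5.56 and 16.9 TPM and males over 3.38, 9.13 and 18.4 TPM, and log2FC was -0.79 ± 0.10 (SE, n = 59 strains, adjusted p = 1.55e-09), which is 1.73-fold lower. The ranges overlapped widely, but the male library was the higher one in 51 of 59 strains. Such counts of the 59 strains for single genes compare CPM after TMM scaling. *Hoxc8* ranged over 16.7, 63.2 and 172 TPM in females and over 18.3, 87.7 and 144 TPM in males of these strains. Its log2FC was -0.62 ± 0.10 (adjusted p = 5.47e-07), which is 1.54-fold lower, and males were higher in 44 of 59 strains. The other Hoxc genes had smaller differences in the same direction, from -0.20 for *Hoxc9* (adjusted p = 0.0194) through -0.29 for *Hoxc6*, -0.34 for *Hoxc10* and -0.36 for *Hoxc4* (adjusted p = 2.04e-05).

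In the Hoxa cluster, *Hoxa6* (log2FC -0.49 ± 0.084, adjusted p = 1.45e-06) had the largest difference of the genes described. It ranged over 0.531, 1.66 and 3.99 TPM in females and over 0.677, 2.29 and 4.10 TPM in males. Males were higher in 45 of the 59 strains, while the ranges of the sexes overlapped. *Hoxa10* followed with -0.40 ± 0.11 (adjusted p = 0.00138), at 1.25, 9.83 and 32.98 TPM in females and 4.26, 13.7 and 27.6 TPM in males. Its highest library was a female, and males were higher in 40 of 59 strains. *Hoxa2*, *Hoxa3*, *Hoxa4*, *Hoxa5* and *Hoxa7* were lower by a log2FC between -0.32 and -0.21, and *Hoxa9* (-0.18, adjusted p = 0.0925) did not pass.

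*Hoxd10*, a gene of the lumbar region and the hindlimb, had the largest difference in the other direction. Females ranged over 0.0579, 1.02 and 4.04 TPM and males over 0.0374, 0.652 and 2.42 TPM, with a log2FC of 0.78 ± 0.13 (adjusted p = 6e-07), which is 1.71-fold higher in females. Females were higher in 48 of 59 strains although the ranges overlapped. The neighbouring *Hoxd9* ranged over 1.52, 3.73 and 8.95 TPM in females and 1.0, 2.82 and 6.95 TPM in males (log2FC 0.27 ± 0.059, adjusted p = 9.21e-05), and was higher in females in 43 of 59 strains. *Hoxd3* was also higher (0.48 ± 0.10, adjusted p = 6.39e-05), with the shared words described above. The genes between them did not pass, with -0.03 for *Hoxd4* (adjusted p = 0.715) and -0.03 for *Hoxd8* (adjusted p = 0.639).

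In the Hoxb cluster 3 of 9 genes were higher and 2 lower in females, near the shares of all genes (28.4% and 29.8%). *Hoxb2* (log2FC 0.37 ± 0.069, adjusted p = 5.86e-06), *Hoxb3* (0.26 ± 0.062, adjusted p = 0.000349) and *Hoxb4* (0.23 ± 0.040, adjusted p = 2.56e-06) were higher in females, the first being a hindbrain gene and the last a regulator of blood stem cells. *Hoxb4* ranged over 4.39, 7.45 and 11.1 TPM in females and 2.45, 6.04 and 9.51 TPM in males, and females were higher in 47 of 59 strains with overlapping ranges. The highest female values of *Hoxb2* (8.54 TPM) and *Hoxb3* (16.6 TPM) came from KK/HlJ, which was also the female highest in mammary epithelial markers (4572 TPM). *Hoxb6* (-0.19, adjusted p = 0.00441) and *Hoxb8* (-0.27, adjusted p = 0.00193) were lower in females. *Hoxb1*, *Hoxb5*, *Hoxb7* and *Hoxb9* did not pass, with log2FC between -0.16 and 0.08.

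**Figure D3:**
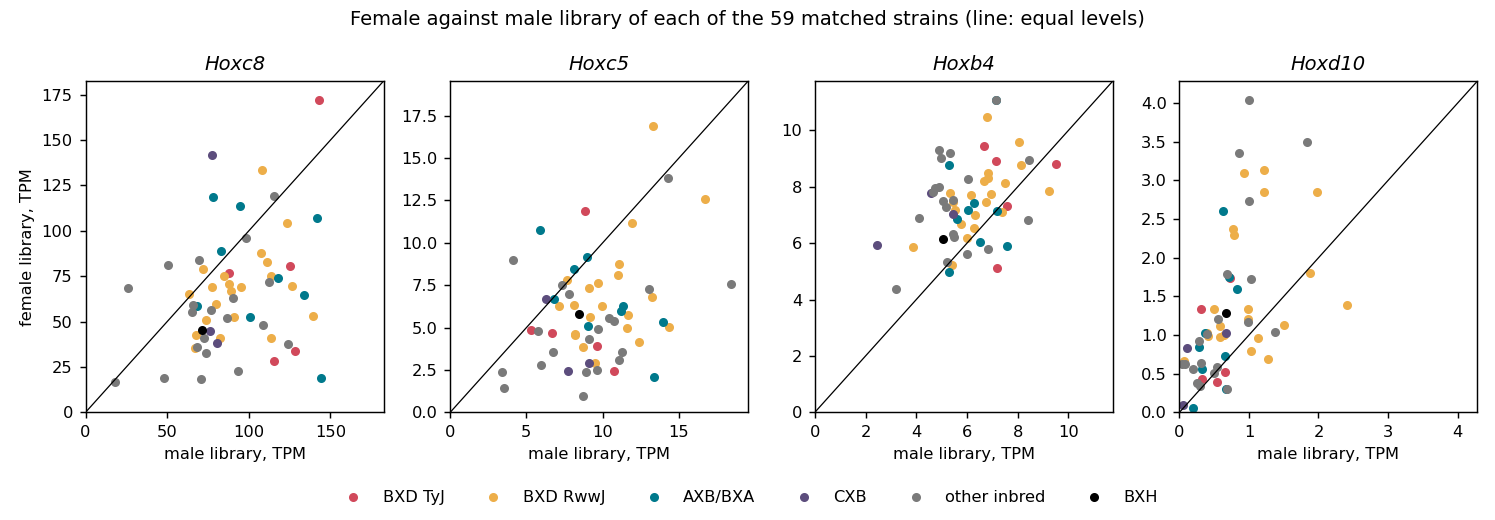
Female against male expression of *Hoxc8*, *Hoxc5*, *Hoxb4* and *Hoxd10* in the 59 matched strains. Each point is a strain coloured by family, the x axis is the TPM of the male library, the y axis that of the female library, and the line marks equal levels. In CPM after TMM scaling, not in the TPM drawn here, the male library was higher for *Hoxc8* and *Hoxc5* in 44 and 51 of 59 strains. The female library was higher for *Hoxb4* and *Hoxd10* in 47 and 48 of 59.

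Because the directions differed between clusters, ratios of *Hox* genes within a library differed between the sexes, as a description that follows from the same values. The ratio of *Hoxa5* to *Hoxb4* in TPM had a median of 0.816 in females and 1.11 in males, and was lower in the female of 51 of 59 strains. *Hoxc8* over *Hoxd8* had medians of 5.04 and 7.51 and was lower in the female of 47 strains. *Hoxa10* over *Hoxd10*, genes of the same position, had medians of 9.17 and 21.8 and was lower in the female of 46 strains. The Hoxc share of the summed *Hox* TPM was 50.6% in females and 57.6% in males, while Hoxb took 15.9% and 12.4% and Hoxd 10.5% and 8.36%.

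Other cell types moved with sex. All 5 adipocyte markers were lower in females (log2FC -0.95 to -0.33), all 9 mammary epithelial markers were higher (5.87 to 8.14), and all 4 endothelial markers were lower. The mammary sum ranged over 1.70, 582 and 4572 TPM in females and 0.380, 3.33 and 554 TPM in males, the lowest female and the highest male being libraries that went against their label. Of the adipose progenitor markers, 2 were higher and 1 lower. With the adipocyte score (mean log2 CPM of the markers) as a covariate, 14 *Hox* genes were higher and 2 lower in females, and 15 of the 28 estimates changed sign. Of all 16765 genes, 4132 were then higher and 4086 lower. With the mammary epithelial score as a covariate no *Hox* gene passed in either direction (smallest adjusted p = 0.9999), 3 of all genes were higher and 5 lower, and 20 *Hox* estimates changed sign. The mammary score differs almost wholly between the sexes, and its part and that of sex cannot be told apart in that model. With the adipose progenitor score, added after seeing the data, 6 *Hox* genes were higher and 16 lower, beside 4993 and 5159 of all genes.

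Scaling moved these calls less. With library totals in place of TMM the median log2FC of all genes shifted to 0.12 and 72.8% of all calls were higher in females, against 48.8% with TMM and 65.04% with limma on log2(TPM + 1). The *Hox* calls were then 6 higher and 12 lower with library totals and 6 higher and 13 lower with limma. *Hoxa5*, *Hoxb6* and *Hoxc9* lost their call under both, and the sign changes (4 and 3 genes) fell on genes that were not called. Without the strain term 6 were higher and 12 lower, with *Hoxa10*, *Hoxb8* and *Hoxc9* no longer called. Without NZW/LacJ the counts were 6 and 16.

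RefSeq windows of the 250 bases before the start of transcription are shown for a few genes that differ in their call between the sexes. Windows were found for 22 of the 38 genes (24 windows, GRCm38.p6), and 7 are printed here 5′ to 3′ on the strand of the gene. They belong to the adjacent genes *Hoxd8*, *Hoxd9* and *Hoxd10*, of which the first was not called and the others were higher in females, to *Hoxb4*, which was higher, and to *Hoxa5*, *Hoxa10* and *Hoxc4*, which were lower. Capitals mark matches on either strand to TGATTNAT (a PBX-HOX composite), TTTATNG (a posterior HOX core), TATAAA (the TATA box) or AGGTCA (the core site of nuclear receptors, which include retinoic acid receptors), where TTTATNG can overlap the reverse of TATAAA.
Hoxd8 chr2:74704365-74704614 (forward strand): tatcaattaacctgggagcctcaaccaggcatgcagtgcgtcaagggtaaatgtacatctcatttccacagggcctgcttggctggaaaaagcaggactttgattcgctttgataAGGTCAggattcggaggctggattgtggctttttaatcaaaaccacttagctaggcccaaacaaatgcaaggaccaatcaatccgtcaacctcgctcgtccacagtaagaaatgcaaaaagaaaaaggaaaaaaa
Hoxd9 chr2:74697513-74697762 (forward strand): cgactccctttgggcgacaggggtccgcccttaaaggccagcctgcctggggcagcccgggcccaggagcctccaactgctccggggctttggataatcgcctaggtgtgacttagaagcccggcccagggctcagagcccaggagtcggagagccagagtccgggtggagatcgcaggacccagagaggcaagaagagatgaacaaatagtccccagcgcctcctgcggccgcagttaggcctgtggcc
Hoxd10 chr2:74691641-74691890 (forward strand): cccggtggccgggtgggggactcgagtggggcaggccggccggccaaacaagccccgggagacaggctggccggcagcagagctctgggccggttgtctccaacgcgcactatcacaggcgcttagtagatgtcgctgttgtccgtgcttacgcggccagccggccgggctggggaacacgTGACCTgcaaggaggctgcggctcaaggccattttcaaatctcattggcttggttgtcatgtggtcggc
Hoxb4 chr11:96318017-96318266 (forward strand): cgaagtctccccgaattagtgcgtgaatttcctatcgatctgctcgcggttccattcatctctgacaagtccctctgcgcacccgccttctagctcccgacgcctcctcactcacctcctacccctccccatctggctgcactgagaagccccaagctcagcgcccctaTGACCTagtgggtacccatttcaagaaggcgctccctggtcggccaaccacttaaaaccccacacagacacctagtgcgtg
Hoxa5 chr6:52204588-52204837 (reverse strand): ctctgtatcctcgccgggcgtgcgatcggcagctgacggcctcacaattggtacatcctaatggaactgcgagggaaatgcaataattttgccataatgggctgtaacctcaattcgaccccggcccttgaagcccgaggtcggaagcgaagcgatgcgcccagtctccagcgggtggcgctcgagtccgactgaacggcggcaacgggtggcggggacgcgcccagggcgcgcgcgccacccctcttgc
Hoxa10 chr6:52234940-52235189 (reverse strand): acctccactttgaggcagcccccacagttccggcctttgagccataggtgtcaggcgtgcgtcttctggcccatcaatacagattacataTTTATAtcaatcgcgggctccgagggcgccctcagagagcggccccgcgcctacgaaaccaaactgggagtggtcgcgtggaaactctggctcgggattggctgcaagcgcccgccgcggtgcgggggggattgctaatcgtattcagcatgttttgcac
Hoxc4 chr15:103034145-103034394 (forward strand): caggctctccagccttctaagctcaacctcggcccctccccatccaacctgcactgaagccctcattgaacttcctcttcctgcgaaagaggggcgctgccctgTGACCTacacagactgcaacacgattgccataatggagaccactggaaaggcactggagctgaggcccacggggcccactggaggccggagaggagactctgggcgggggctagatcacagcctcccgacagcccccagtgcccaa

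AGGTCA, read on either strand, is in the windows of *Hoxd8*, *Hoxd10*, *Hoxb4* and *Hoxc4*, which include a gene that was not called, genes that were higher and a gene that was lower in females. The printed window of *Hoxa10* holds the reverse of the TATA box, while its other window (chr6:52240855-52241104) and those of *Hoxd9* and *Hoxa5* hold none of the 4 motifs. Over the 24 *Hox* windows, AGGTCA was found in 25% (14.02% of all 32851 windows), CCAAT in 58.3% (33.8%), TATAAA in 16.7% (12.4%), TGATTNAT in 8.33% (2.82%) and TTTATNG in 8.33% (9.81%). The *Hox* windows had a median GC content of 58.6% against 52.4% over all windows, and a median CpG ratio (observed over expected) of 0.721 against 0.373. A match is a description of the letters and no evidence of binding.

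The comparison of strains asked whether a strain's female and male libraries were alike relative to those of other strains. Of the 28 tested genes, 21 differed over the 59 strains (quasi-likelihood F-test of edgeR on the strain terms, Benjamini-Hochberg adjusted p under 0.05), where 71.2% of all genes did. The share of variance between strains (intraclass correlation of log2 CPM, a description) had a median of 0.343 over the *Hox* genes and 0.294 over all genes. It was highest for *Hoxd10* (0.612), *Hoxb4* (0.571), *Hoxb8* (0.532), *Hoxd9* (0.516), *Hoxb9* (0.505) and *Hoxa5* (0.496), and lowest for *Hoxb2* (0.104). *Hoxa4*, *Hoxa6*, *Hoxb2*, *Hoxc4*, *Hoxc5*, *Hoxc6* and *Hoxd3* did not pass.

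Strains were ranked by their mean CPM after TMM scaling, and the values of their libraries are given in TPM, on which the order can differ. *Hoxd10* had the widest range of strain means, 11.4-fold, with F = 3.52 (adjusted p = 1.25e-05). C3H/HeJ was highest, at 3.50 TPM in the female and 1.84 TPM in the male, and BXA8/PgnJ lowest, at 0.0579 and 0.198 TPM. On the TPM scale CXB11/HiAJ was lower, with a strain mean of 0.0760 TPM. *Hoxd9* was again highest in C3H/HeJ (8.95 and 6.61 TPM) and lowest in SM/J (1.68 and 1.41 TPM), a 3.99-fold range. Here too CXB11/HiAJ was lower on the TPM scale (strain mean 1.37 TPM). Both sexes of C3H/HeJ were thus high for neighbouring Hoxd genes. *Hoxb4* had F = 3.59 (adjusted p = 9.48e-06) over a narrow 2.47-fold range, from 4.39 and 3.20 TPM in SJL/J to 8.82 and 9.51 TPM in BXD40/TyJ.

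*Hoxc8* (F = 2.08, adjusted p = 0.00639) ranged 9.67-fold. SJL/J was lowest, at 16.7 TPM in the female and 18.3 TPM in the male. On the CPM scale CXB11/HiAJ was highest (141.9 and 77.2 TPM), whereas on the TPM scale BXD24/TyJ-Cep290<rd16>/J was (172 and 143 TPM), so the top strain depends on the scale. On the CPM scale SJL/J was the lowest strain for 12 of the 28 genes, among them *Hoxb3*, *Hoxb4*, *Hoxb5*, *Hoxd4*, *Hoxd8* and every Hoxc gene except *Hoxc5*. This tally depends on the scale as well. On the TPM scale CXB11/HiAJ was the lowest strain for *Hoxb3* (strain mean 2.59 TPM), *Hoxa5* (3.50 TPM) and *Hoxa7* (6.71 TPM), among others. The SJL/J male was the male highest in brown adipocyte markers (1646 TPM), and the BXD14/TyJ female was the highest female (1808 TPM). The part of these markers in the *Hox* levels was not tested.

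The sexes of AXB12/PgnJ stood apart from each other. Its female had the lowest *Hox* sum of all libraries (99.7 TPM) and its male 372 TPM, and *Hoxa10* was at 1.25 and 8.05 TPM, *Hoxa9* at 1.54 and 7.26 TPM and *Hoxa7* at 4.32 and 17.3 TPM. The same female was the highest of all females in lymphocyte markers (1172 TPM, median 34.97) and in adipose progenitor markers (1121 TPM, median 376), whose part in its *Hox* levels was not tested. *Hoxb1* passed the strain test (F = 2.87), but its top strain, PL/J, rested on the male library alone (4.24 TPM against 0.310 TPM in the female). *Hoxa10* was highest in BXD64/RwwJ (30.997 and 20.9 TPM), an 8.63-fold range.

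The founders of the crosses and BALB/cJ can be set side by side, with 1 library per sex. *Hoxa10* was at 14.99 TPM in the female and 18.3 TPM in the male of DBA/2J, at 6.998 and 13.7 TPM in C57BL/6J, at 7.70 and 21.9 TPM in A/J and at 4.19 and 6.91 TPM in BALB/cJ. In C3H/HeJ *Hoxa10* was at 7.87 and 8.73 TPM. *Hoxd10* was at 3.35 and 0.855 TPM in DBA/2J, at 0.635 and 0.304 TPM in C57BL/6J and at 1.01 and 0.394 TPM in A/J. It was at 3.50 and 1.84 TPM in C3H/HeJ and is not given for BALB/cJ. The female exceeded the male for *Hoxd10*, and the male exceeded the female for *Hoxa10*, in each strain given.

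The comparison of families asked whether groups of related strains differ, on the summed counts of the female and male library of each strain (58 strains, without the BXH strain). A share of the *Hox* genes was higher in the BXD strains than in the other inbred strains, and the rest did not pass. Of 31 tested genes, 12 differed over the 5 families (23.6% of all 20580 genes did). In the comparisons with BXD, the group of 5 TyJ strains and that of 21 RwwJ strains had equal weight. A TyJ strain thus counted for more than an RwwJ strain, and the log2FC is not that of the 26 BXD strains pooled. Against the other inbred strains, 12 were higher in BXD, where 4.93% of all genes were, and 0 were lower, where 7.94% of all genes were. The median log2FC was 0.27 over the 31 and -0.02 over all genes. The comparisons below share the BXD strains and are not independent.

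**Figure D4:**
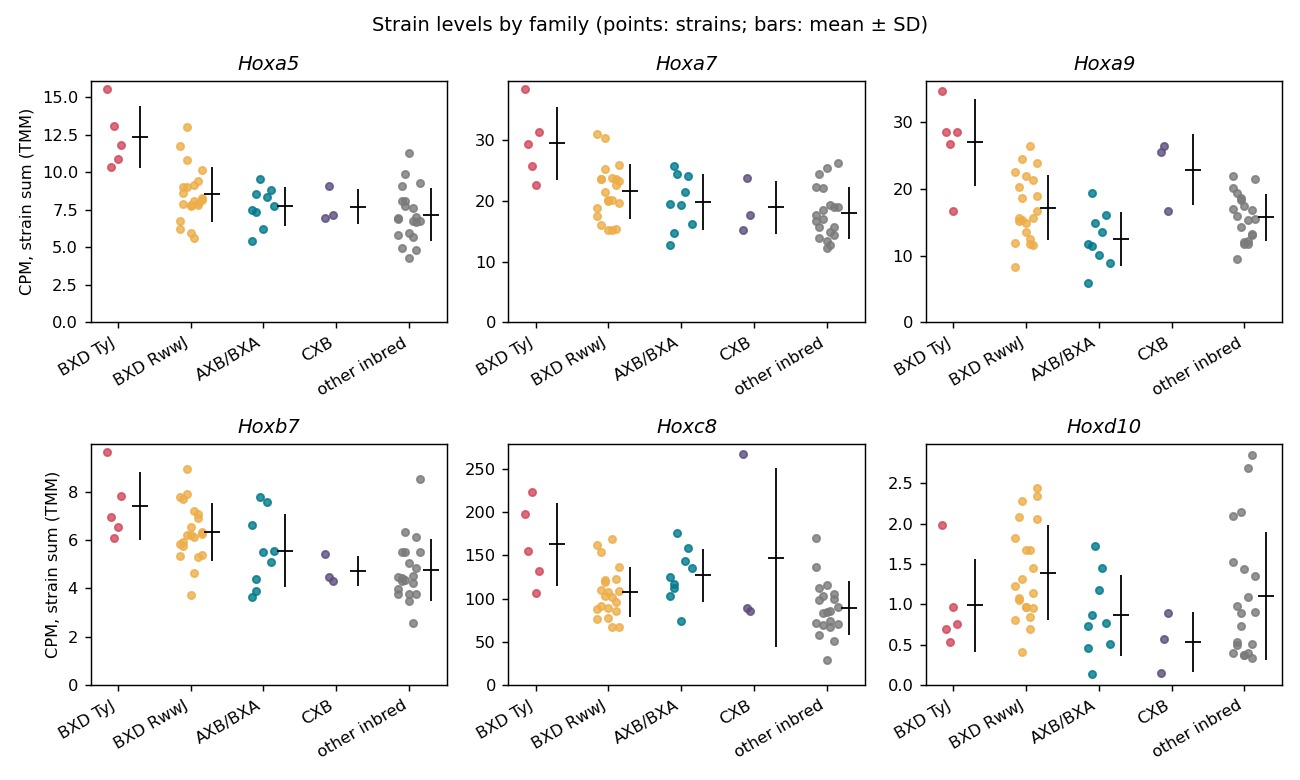
Expression of *Hoxa5*, *Hoxa7*, *Hoxa9*, *Hoxb7*, *Hoxc8* and *Hoxd10* by family. Each point is a strain (female and male counts summed, CPM after TMM scaling), and bars give the mean ± SD of BXD TyJ (n = 5), BXD RwwJ (n = 21), AXB/BXA (n = 9), CXB (n = 3) and other inbred strains (n = 20). The mean of the BXD TyJ strains is the highest for *Hoxa5*, *Hoxa7* and *Hoxa9*, and their strains overlap with those of BXD RwwJ for each of the 6 genes.

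Of the Hoxa genes, *Hoxa2*, *Hoxa5* (log2FC 0.51 ± 0.10, adjusted p = 0.000681), *Hoxa7* (0.48, adjusted p = 0.00161), *Hoxa9* and *Hoxa10* (0.58, adjusted p = 0.0190) were higher in BXD. Mean *Hoxa5* was 12.3 ± 2.06 CPM (SD) in BXD TyJ, 8.53 ± 1.82 CPM in BXD RwwJ and 7.18 ± 1.76 CPM in the other inbred strains. *Hoxa7* was at 29.4 ± 6.02, 21.5 ± 4.48 and 18.02 ± 4.24 CPM in the same order. In the Hoxb cluster *Hoxb4* (0.33), *Hoxb5* (0.45), *Hoxb7* (0.53, adjusted p = 0.00107) and *Hoxb8* (0.56) were higher. *Hoxc8* (0.58 ± 0.15, adjusted p = 0.0100) and *Hoxc9* (0.48) were higher in Hoxc, and in Hoxd only *Hoxd11* (0.95, adjusted p = 0.0329), which lies near the floor.

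*Hoxc8* averaged 163 ± 47.8 CPM in BXD TyJ, 107.4 ± 29.1 CPM in BXD RwwJ and 88.7 ± 31.2 CPM in the other inbred strains. In TPM the strain means ran over 51.4, 78.02 and 121 in the 21 RwwJ strains and over 17.5, 64.1 and 117.1 in the 20 other inbred strains, so the families overlapped over most of their range. The calls were fewer in fits to a single sex, with 7 from female libraries only and 4 from male libraries only. Those fits took every library of that sex in the families compared, also from strains without a library of the other sex. The library labelled BXD34/TyJ female was among them. Over all genes 1963 of 19670 were higher in the female libraries and 786 of 19230 in the male ones. With the sexes summed 1015 of 20580 were. With limma on log2(TPM + 1) 7 *Hox* genes were called higher, beside 343 of all 20580 genes. With that scaling the median over all genes was -0.08 and 13.4% of all calls were higher in BXD, against 38.3% with TMM and 20.9% with library totals (median -0.09, 11 *Hox* genes higher). No *Hox* gene was called lower under any of these. Mammary epithelial markers differed as well, with 7 of 9 lower in BXD (median log2FC -1.06), and their part in the *Hox* differences was not tested. Of the skeletal muscle markers 1 was higher in BXD (list median log2FC 2.62), and the BXD79/RwwJ female had the highest sum (17078 TPM). Without strains with a library high in muscle markers, the calls of all 31 genes stayed the same in this comparison. In the test over families 28 stayed the same and 3 were weaker.

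Against BXD, again with equal weight for the TyJ and RwwJ groups, the 9 AXB/BXA strains had 2 genes lower and 0 higher. Of all genes 1.05% were lower and 1.83% higher. At an unadjusted p under 0.05 there were 11 lower and 0 higher, beside 1222 lower and 1584 higher of all 20580 genes. The 2 are the neighbours *Hoxa9* (log2FC -0.79 ± 0.17, adjusted p = 0.00392) and *Hoxa10* (-0.83 ± 0.22, adjusted p = 0.0259). *Hoxa9* averaged 12.5 ± 4.03 CPM in AXB/BXA, 27.03 ± 6.56 in BXD TyJ and 17.2 ± 4.93 in BXD RwwJ, and *Hoxa10* averaged 10.996 ± 3.15, 21.6 ± 6.94 and 17.7 ± 6.45 CPM. Strain means of *Hoxa10* in TPM ran over 4.65, 9.15 and 13.2 in AXB/BXA, and the highest of them lay below the median of the RwwJ strains (14.6 TPM). The call of *Hoxa10* was lost without the sublines AXB19a and AXB19b, from female libraries only, with limma on log2(TPM + 1) and without BXD12/TyJ or BXD24/TyJ-Cep290<rd16>/J, each of which left 1 gene, *Hoxa9*. The split of all calls was 63.5% higher with TMM, 68.7% with library totals and 80.4% with limma.

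Within BXD, 5 genes were lower in the 21 RwwJ strains than in the 5 TyJ strains, where 6.01% of all genes were, and 0 were higher, where 3.03% of all genes were. These were *Hoxa5* (log2FC -0.53 ± 0.15, adjusted p = 0.0162), *Hoxa7* (-0.45, adjusted p = 0.0499), *Hoxa9* (-0.65, adjusted p = 0.0199), *Hoxb4* (-0.45, adjusted p = 0.0122) and *Hoxc9* (-0.59, adjusted p = 0.0408). In the 5 TyJ strains *Hoxa5* was at 15.5 CPM (BXD12/TyJ), 10.4 (BXD14/TyJ), 13.1 (BXD24/TyJ-Cep290<rd16>/J), 10.9 (BXD38/TyJ) and 11.8 (BXD40/TyJ), with an RwwJ mean of 8.53 ± 1.82 CPM. On the CPM scale every TyJ strain was above that mean. In TPM the strain mean of BXD14/TyJ was 5.51, below the RwwJ mean of 7.13. Of the 5 calls, 0 were left without BXD12/TyJ, 1 without BXD40/TyJ and 2 without BXD14/TyJ. Over all genes the lower calls fell from 1236 to 64 without BXD12/TyJ, to 853 without BXD40/TyJ and to 888 without BXD14/TyJ. They also depend on the scaling. With limma on log2(TPM + 1) the median of all genes shifted from 0.04 to 0.23 and 96.1% of all calls were higher in RwwJ (33.5% with TMM, 69.9% with library totals). None of the 5 was then called, with log2FC from -0.25 to -0.10 (-0.48 to -0.33 relative to the median of all genes), and *Hoxb3* (0.38) and *Hoxd8* (0.46) were called higher. The adipose progenitor markers, of which 1 was higher in RwwJ (list median log2FC 0.72), moved with this comparison, and with their score as a covariate, added after seeing the data, none of the 5 was called and 31 of all genes were lower. Of the brown adipocyte markers 2 of 4 were lower in RwwJ (list median log2FC -2.33), and their part was not tested. The skeletal muscle markers had a list median log2FC of 3.76 with 0 called.

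The sex difference of the *Hox* genes was not detectably unlike between BXD and the other strains. In the interaction of sex with BXD membership 0 of 28 *Hox* genes and 0 of all 16765 genes passed (edgeR's quasi-likelihood test), and at an unadjusted p under 0.05 there were 0 *Hox* genes and 314 of all genes. Without the strain term 0 *Hox* genes and 61 of all genes passed. No other tool was run for the interaction.

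The likeness of *Hox* genes across libraries is given as a description, as correlations of log2(CPM + 0.1) over the libraries of each sex (which share depth and tissue make-up). In females the median Pearson's r was 0.604 over the 74 pairs within a cluster and 0.455 over the 226 pairs between clusters, and in males it was 0.588 and 0.486. The Hoxc genes were most alike (0.834 in females and 0.768 in males over 15 pairs). Hoxa had 0.620 and 0.508 over 28 pairs and Hoxb 0.459 and 0.574 over 28 pairs, so that Hoxb in females lay close to the pairs between clusters. Hoxd (0.380 and 0.423 over 3 pairs) lay below them in both sexes by Pearson's r. By Spearman's rho the Hoxd median in females was 0.563, above the 0.489 of pairs between clusters. In males it was 0.439 against 0.449. The females include the shallow library labelled BXD34/TyJ female, with *Hoxd4* at 0.0639 TPM, whose part was not tested. Paralogs of the same position in different clusters had 0.456 and 0.507 over 25 pairs, close to the value for all pairs between clusters.

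**Figure D5:**
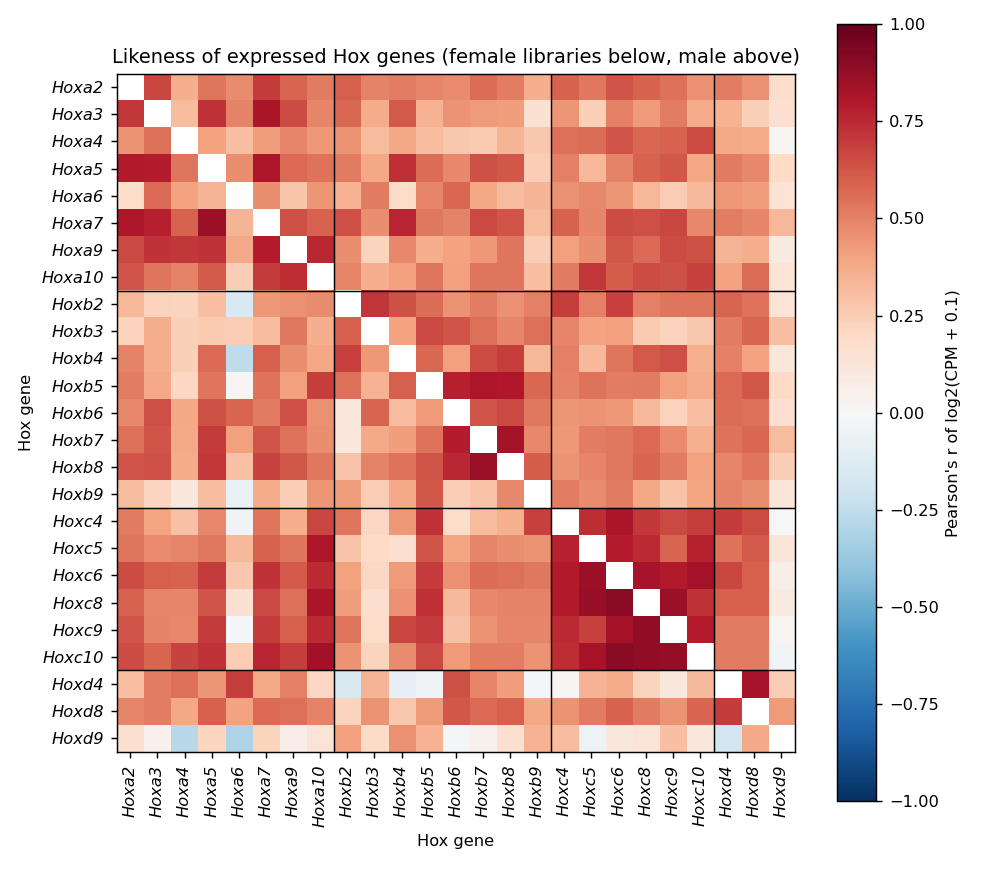
Pearson's r between the 25 expressed *Hox* genes over libraries, with females (n = 67) below the diagonal and males (n = 74) above it. Rows and columns are in the order of cluster and position, and the colour gives r. The block of the 6 Hoxc genes is the strongest in both sexes.

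The pairs most alike in females were *Hoxc6* with *Hoxc10* (r = 0.904), *Hoxc6* with *Hoxc8* (0.901) and *Hoxc8* with *Hoxc9* (0.890). In males they were *Hoxc8* with *Hoxc9* (0.864), *Hoxc6* with *Hoxc10* (0.832), *Hoxb7* with *Hoxb8* (0.830) and *Hoxd4* with *Hoxd8* (0.824). Of the last pair *Hoxd4* shares sequence with a neighbouring model, while *Hoxd8* shares 0.073% of its words with other genes. The lowest pair in females was *Hoxa6* with *Hoxd9* (r = -0.308, Spearman's rho 0.0146), and in males *Hoxc10* with *Hoxd9* (-0.0286). Pearson's r and Spearman's rho of the first of these pairs differ.

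Genes that work with or on *Hox* genes were also examined between the sexes. Of 9 cofactors of the TALE class, which bind DNA together with HOX proteins, 6 were higher in females and 1 lower, with *Pbx4* at a log2FC of 0.88 (adjusted p = 7.24e-05), *Pknox2* at 0.57 and *Meis1* at 0.42. Of 23 Polycomb repressors, which keep *Hox* clusters silent, 15 were higher and 1 lower, led by *Pcgf2* (0.70), *Cbx2* (0.41) and *Cbx6* (0.33). Of 11 Trithorax activators, which keep them active, 8 were higher and none lower, led by *Kdm6a* (0.84), an X-linked gene that escapes inactivation, *Psip1* (0.32) and *Kmt2a* (0.31). Median log2FC was 0.20, 0.08 and 0.11 in these lists, against 0.01 over all genes, with 28.4% of all genes called higher. With the mammary score as a covariate 0, 0 and 1 of these were higher. With the adipocyte score 5 Polycomb genes were higher and 6 lower, and 2 Trithorax genes higher and 3 lower.

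Of the upstream genes, 8 of 12 caudal and retinoic acid genes were tested and 2 were higher and 2 lower, among them *Aldh1a3* (1.45), *Aldh1a1* (-0.82), both enzymes of retinoic acid synthesis, and the receptor *Rarb* (-0.45). Of 20 other positional transcription factors of fat depots 14 were tested and 5 were higher and 5 lower, with the largest differences for the Iroquois genes *Irx1* (4.67), *Irx2* (4.47) and *Irx5* (2.92). By strain, 5 of 9 TALE, 15 of 23 Polycomb, 9 of 11 Trithorax, 7 of 8 retinoic acid and 7 of 14 positional genes were called, beside 21 of 28 *Hox* genes and 71.2% of all genes. In BXD against the other inbred strains, where 12 *Hox* genes were higher, 2 Polycomb genes were (*Pcgf1* at 0.15 and *Bmi1* at 0.10), and *Irx1* (-0.99), *Irx5* (-0.91), *Irx3* (-0.53), *Pknox1* (-0.21) and *Wdr5* (-0.13) were lower. *Tbx4*, a gene of the hindlimb, was lower in AXB/BXA than in BXD (-2.26 ± 0.61). It lies near the floor, with medians of 0.0321 TPM in females and 0.0164 TPM in males. The noncoding RNAs of the *Hox* clusters, listed with 12 names, were not analysed here.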

How the data were processed

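RNA was extracted from iWAT, and stranded paired-end mRNA libraries were sequenced. The authors quantified reads with kallisto 0.46.1 against the Ensembl release 97 transcriptome (mm10) and used tximport for gene-level sums. Estimated counts were deposited without normalization, and 30.3% of them were fractional. In the deposited TPM values the authors accounted for transcript length, and each library adds to 1000000, so that no depth is kept. Columns without a sample numbered 0. Of 36558 identifiers, 35856 were named by GENCODE M21.

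Counts were rounded, filtered with filterByExpr and scaled by TMM. Sex and strain were tested in the model ~ Strain + Sex on 59 strains, and families on counts summed per strain, with edgeR 4.0.16 (R 4.3.3) and its quasi-likelihood test. Family comparisons with BXD gave its TyJ and RwwJ groups equal weight, whatever their number of strains. P-values were adjusted over all genes tested with the Benjamini-Hochberg method, with a threshold of 0.05. Standard errors follow from the log2FC and its F statistic. Likeness and intraclass correlations used log2(CPM + 0.1). numpy 2.4.6 and pandas 2.3.3 were used. The steps were tested on simulated data.

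Nothing states that libraries of a strain came from separate cohorts, and p-values measure the spread between these samples. Libraries of opposite sex from 1 strain form a pair. Deviations of the same strain correlated with a median r of 0.62 over 59 pairs and 10361 genes (lowest -0.40, over 0.1 in 44 pairs), against -0.01 for different strains. The strain term follows the study's methods. The closest libraries had r = 0.990 with 24 of 12006 values identical, and none was merged.

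Every *Hox* gene described is accounted for, and 1 gene that the rule finds is not reported here. Those with a median of at least 1 TPM are given by sex, strain and family, others by range, and of each gene list at most the 3 called genes with the largest log2FC are named. Genes named beyond this were chosen after their values were seen. Members and lists were chosen with earlier results of these data known. Alternatives were DESeq2 1.42.0, limma-voom and limma 3.58.1 on log2(TPM + 1) and log2(TPM + 0.1), RLE factors, library totals, other filters, no strain term, all libraries, marker scores as covariates, single sexes, and leaving out strains.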

Additional observations from a re-analysis of the deposited data

Results flagged for a closer look

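In 50 groups (the 25 expressed genes in the 5 BXD TyJ and in the 9 AXB/BXA strains), the highest and the lowest strain was compared with its nearest neighbour by Dixon's test at 95%, in summed counts per strain as CPM. Chance marks about 5% of such groups, and 3 were marked. *Hoxb9* in the BXD TyJ strains was highest in BXD40/TyJ, at 2.33 CPM against 1.68 CPM in the next strain, with 1.09 TPM in the female and 1.04 TPM in the male. *Hoxb9* in the AXB/BXA strains was lowest in BXA7/PgnJ, at 0.902 CPM against 2.02 CPM in the next, with 0.497 and 0.539 TPM, and the male library of this strain had 2496 TPM of skeletal muscle markers. *Hoxd4* in the AXB/BXA strains was highest in AXB5/PgnJ, at 19.04 CPM against 13.9 CPM in the next, with 9.61 and 10.1 TPM. In each of these strains both sexes lay on the same side.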

How the results depend on the processing

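The sex comparison gave 6 *Hox* genes higher and 15 lower in females. With the adipocyte score these were 14 and 2 (4132 and 4086 of all genes). With the mammary epithelial score they were 0 and 0 (3 and 5 of all genes). Among the 15 genes whose sign turned with the adipocyte score were *Hoxa5* (0.018), *Hoxa7* (0.080), *Hoxa9* (0.24), *Hoxa10* (0.16), *Hoxb5* (0.17), *Hoxb6* (0.0039), *Hoxb8* (0.011), *Hoxb9* (0.19), *Hoxc4* (0.026), *Hoxc6* (0.17), *Hoxc9* (0.18), *Hoxc10* (0.18), *Hoxd4* (0.24) and *Hoxd8* (0.19). Among the 20 whose sign turned with the mammary score were *Hoxa3* (0.10), *Hoxa5* (0.14), *Hoxa10* (0.12), *Hoxb2* (-0.026), *Hoxb3* (-0.017), *Hoxb6* (0.073), *Hoxb8* (0.23), *Hoxc4* (0.28), *Hoxc6* (0.29), *Hoxc8* (0.065), *Hoxc9* (0.059), *Hoxc10* (0.20) and *Hoxd10* (-0.19). Without the strain block that pairs the sexes, 6 were higher and 12 lower. DESeq2 gave 6 and 16.

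Against the 12 genes higher in BXD than in other inbred strains, 7 were called from female libraries only, 4 from male libraries only and 7 with limma on TPM. Over all genes 1963, 786 and 343 were higher in these settings, against 1015 in the main one. Fits to female or male libraries only, here and below, also held strains without a library of the other sex. Leaving out each of the 5 BXD TyJ and 3 CXB strains in turn gave 9 to 13 *Hox* genes (no other strain was left out in turn). The test over families (12) gave 6 in females, 7 in males and 9 to 15 without 1 of these strains. AXB/BXA against BXD (2 lower) gave 4 with DESeq2, 6 with the adipocyte score, 1 in females, with limma on TPM and without AXB19a and AXB19b, and 1 to 2 without 1 of these strains (1 without BXD12/TyJ or BXD24/TyJ-Cep290<rd16>/J). RwwJ against TyJ (5 lower) gave 3 with the adipocyte score, with library totals and without a filter, 0 with the progenitor score, in males and with limma on TPM (2 higher), and 0 to 7 without 1 of these strains (0 without BXD12/TyJ, 1 without BXD40/TyJ, 2 without BXD14/TyJ). The cause of these changes was not tested. Genes at positions 11 to 13 are limited by depth, and each strain by 1 library per sex.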
